A study of Saccharomyces cerevisiae with 14 samples.

Results

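The 10 stress response transcription factors described here are *HSF1*, *MSN2*, *MSN4*, *GIS1*, *YAP1*, *SKN7*, *HAC1*, *RPN4*, *RLM1* and *HOT1*, taken by gene name from 5449 named genes of *Saccharomyces cerevisiae* on Affymetrix Yeast Genome 2.0 arrays. Each of the 10 has 1 probe set, and all 10 were among the 5443 genes tested. RNA came from 3 strains, which the labels call heat tolerant (NFRI 3236), heat sensitive (NFRI 3155) and control (S288C). Cells growing exponentially in YPD, a rich glucose medium, were held for 30 min in a 39°C water bath or left untreated at 30°C. Each NFRI strain gave 2 arrays per temperature and S288C gave 3. The methods state independently grown cells in duplicate, and do not say whether all 3 S288C arrays of a temperature came from separate cultures, so that p-values measure the spread between these arrays. The labels give no genotype, ploidy or mating type for any strain. The comparisons ask how far the transcripts of the regulators themselves differ between 39°C and 30°C, and between strains before any heat.

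Yeast meets heat with several transcription programs at the same time. Hsf1, an essential protein, binds heat shock elements and drives chaperone genes. Msn2 and Msn4, a pair of related zinc finger proteins that protein kinase A keeps out of the nucleus during fast growth, bind stress response elements in front of genes for trehalose, catalase and many others. Gis1 binds post-diauxic shift elements and acts downstream of the kinase Rim15. Yap1 and Skn7 share targets in the oxidative stress response, Hac1 drives the unfolded protein response of the endoplasmic reticulum, Rpn4 drives proteasome genes, and Rlm1 and Hot1 work below the cell wall kinase Slt2 and the osmotic stress kinase Hog1. Much of the control of these proteins lies in localisation, phosphorylation, splicing and protein turnover, none of which an array measures.

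Each level below is a signal as a multiple of the 75th percentile of its own array, which sets arrays of different brightness on 1 scale. Levels are compared for a gene between arrays and never between genes. A transcript is said to have risen or fallen where limma gave an adjusted p under 0.05 over all 5443 genes (Benjamini-Hochberg). All factors but *HOT1* lay between 6.17 and 333 times the background of the array, and *HOT1* at 2.00 to 5.08 times. The background is the 95th percentile of probe sets for another yeast, *Schizosaccharomyces pombe*. The 75th percentile itself ran between 95.7 and 438 signal units, and 5144 to 5336 genes were above background on an array. The 3 S288C arrays at 30°C stood apart in 2 controls. At most 1 of 24 spiked poly-A control probe sets was above background there, against 17 to 24 on the other arrays, and the 3′ to 5′ signal ratio of *ACT1* was 1.84 to 2.05, against 1.16 to 1.58. These arrays enter the S288C heat change and both differences from S288C at 30°C, and the part of these control values in those results was not tested. The 3′ to 5′ ratio of *WBP1* was 10.9 on replicate 2 of NFRI 3236 at 39°C and 1.41 to 5.86 on all others.

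**Figure D1:**
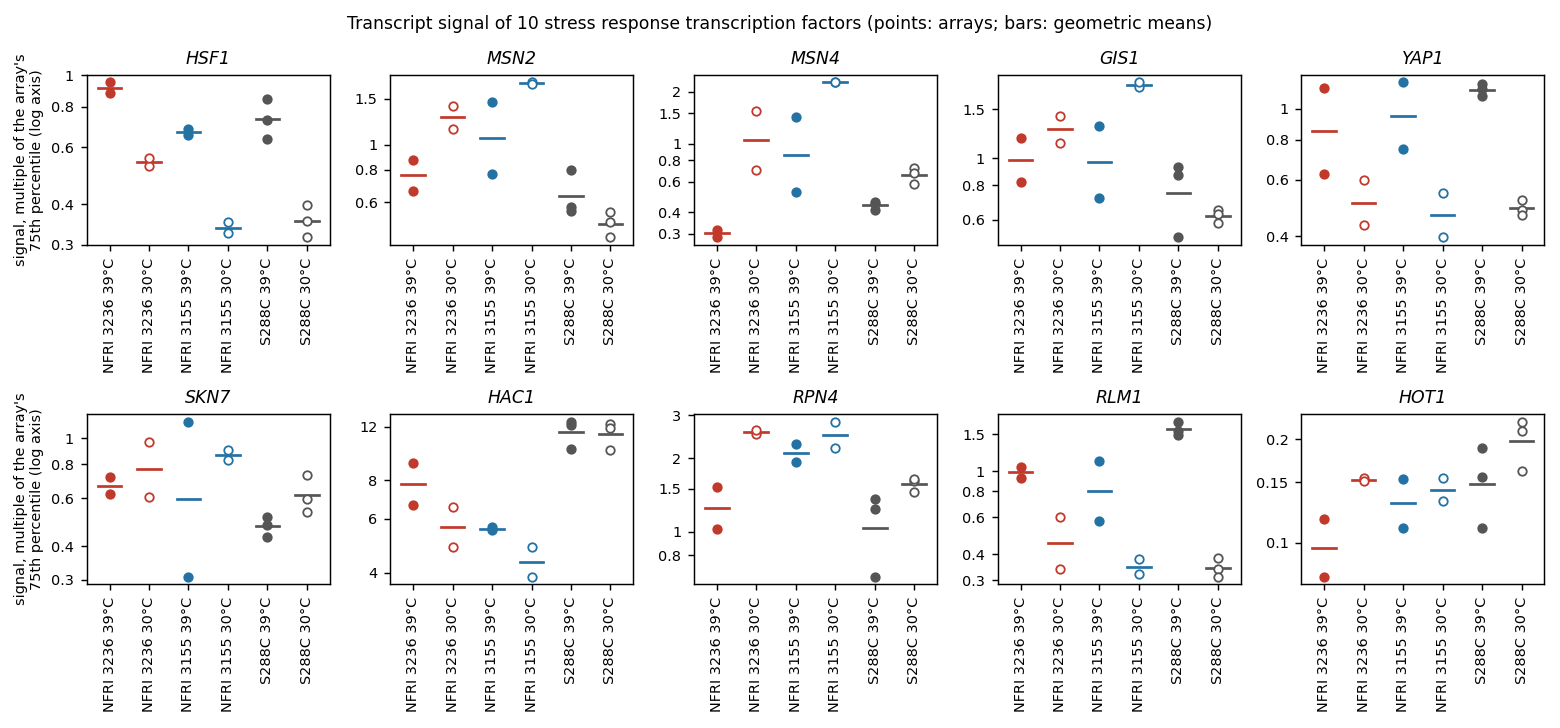
Signal of each of the 10 factors on every array, as a multiple of the array's 75th percentile on a log axis, with points for arrays, filled at 39°C and open at 30°C, and bars for geometric means. *HSF1*, *YAP1* and *RLM1* lie higher at 39°C in each strain, *MSN4* lies lower at 39°C in each strain, and the 2 NFRI 3155 arrays at 39°C lie far apart for *SKN7* (0.308 and 1.15).

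After heat, *HSF1* and *RLM1* rose in all 3 strains, *YAP1* rose in NFRI 3155 and S288C, *MSN4* fell in NFRI 3236 and NFRI 3155, *RPN4* fell in NFRI 3236 and *GIS1* fell in NFRI 3155. *MSN2*, *SKN7*, *HAC1* and *HOT1* passed the test in no strain. This makes 4 of 10 factors called in NFRI 3236, 5 of 10 in NFRI 3155 and 3 of 10 in S288C. Of all genes tested, 39.2% were called in NFRI 3236, 42.2% in NFRI 3155 and 53.4% in S288C. The share of factors called was near that background in the NFRI strains and below it in S288C. Most heat calls in the NFRI strains failed the t-test of the methods, which uses only the arrays compared. The lost calls listed below for each factor leave that test out. The median log2 change of the 10 was −0.28 in NFRI 3236, −0.19 in NFRI 3155 and 0.15 in S288C, beside −0.10, −0.08 and −0.04 over all genes in the same strains. Rising in all 3 strains, as 2 factors did, was shared by 493 genes (9.06%), while 743 genes (13.7%) and 0 factors fell in all 3 by the same limma test. The 39°C arrays lay wholly above the 30°C arrays for 4 factors in each strain, beside 30.8% of all genes in NFRI 3236, 33.7% in NFRI 3155 and 30.4% in S288C. They lay wholly below for 4 factors in NFRI 3236 (39.4% of all genes), 3 in NFRI 3155 (39.2%) and 3 in S288C (33.9%).

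*HSF1* encodes the heat shock factor itself. In NFRI 3236 it read 0.951 and 0.881 at 39°C, against 0.527 and 0.557 at 30°C. In NFRI 3155 the 39°C arrays gave 0.682 and 0.654, and the 30°C arrays 0.327 and 0.352. In S288C *HSF1* stood at 0.637, 0.728 and 0.847 at 39°C, against 0.356, 0.317 and 0.397 at 30°C. No 39°C array of a strain overlapped its 30°C arrays, and NFRI 3236 was the highest strain at both temperatures, with no overlap with the next. The rise was 1.69-fold in NFRI 3236 (log2 0.76, SE 0.20, adjusted p = 0.00982), 1.97-fold in NFRI 3155 (log2 0.98, SE 0.20, adjusted p = 0.00166) and 2.06-fold in S288C (log2 1.04, SE 0.16, adjusted p = 1.44e-04). The NFRI 3236 call was lost without replicate 1 at 30°C (log2 0.72, adjusted p = 0.0621), and that of NFRI 3155 with no 75th percentile shift (log2 1.19, adjusted p = 0.0744). The S288C call held in each alternative run.

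*MSN4* and *MSN2* encode the general stress factors. *MSN4* at 39°C read 0.286 and 0.317 in NFRI 3236, against 0.704 and 1.56 at 30°C. In NFRI 3155 its 39°C arrays gave 0.523 and 1.43, and its 30°C arrays 2.27 and 2.27. For S288C the *MSN4* values were 0.460, 0.446 and 0.411 at 39°C, against 0.720, 0.587 and 0.675 at 30°C. Every 39°C array was below every 30°C array of its strain, although replicates differed widely at 30°C in NFRI 3236 and at 39°C in NFRI 3155. *MSN4* fell to 0.288 of its 30°C level in NFRI 3236 (log2 −1.80, SE 0.41, adjusted p = 0.00364) and to 0.380 in NFRI 3155 (log2 −1.39, SE 0.41, adjusted p = 0.0139). In S288C the ratio was 0.666, with a 95% interval of 0.406 to 1.09 and an adjusted p of 0.154. The limma test also draws on the spread of the NFRI arrays. By the t-test of the methods, which uses only the S288C arrays here, the S288C fall in *MSN4* passed, also after Benjamini-Hochberg adjustment (log2 −0.59). The log2 SD of *MSN4* in S288C was 0.085 at 39°C and 0.150 at 30°C. It was 0.81 in NFRI 3236 at 30°C and 1.03 in NFRI 3155 at 39°C. Leaving out replicate 2 of NFRI 3236 at 30°C gave a log2 change of −1.22 (adjusted p = 0.0513). In NFRI 3155 the call was lost without replicate 1 at 39°C (−0.67, adjusted p = 0.169), replicate 1 at 30°C (−1.39, adjusted p = 0.0613) or replicate 2 at 30°C (−1.40, adjusted p = 0.0582). With no 75th percentile shift neither call stood (−0.96 in NFRI 3236, adjusted p = 0.154, and −1.18 in NFRI 3155, adjusted p = 0.108). The S288C signals of *MSN4* before the shift overlapped, at 60.1, 59.9 and 111 units at 39°C, against 68.8, 61.6 and 91.1 at 30°C. The t-test that the S288C fall passed used shifted values.

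*MSN2* moved less and passed the test in no strain. In NFRI 3236 it read 0.876 and 0.666 at 39°C, against 1.15 and 1.41 at 30°C, a ratio of 0.599 (adjusted p = 0.0636). In NFRI 3155 it read 0.772 and 1.46, against 1.74 and 1.71, a ratio of 0.617 (adjusted p = 0.0743). In S288C it read 0.802, 0.556 and 0.575, against 0.504, 0.440 and 0.552, a ratio of 1.28 (adjusted p = 0.234). The temperatures did not overlap in any of the strains, with the 39°C arrays below in both NFRI strains and above in S288C. The 2 NFRI changes passed the test with 16 added to each signal (log2 −0.70, adjusted p = 0.0368 in NFRI 3236, and −0.66, adjusted p = 0.0470 in NFRI 3155). With no 75th percentile shift *MSN2* passed as higher in S288C (0.96, adjusted p = 0.0435), and with a shift to the median as lower in NFRI 3155 (−0.97, adjusted p = 0.0230). The NFRI 3236 change of −0.74 also passed without either NFRI 3155 array at 39°C (adjusted p = 0.0242 each) or replicate 1 of S288C at 39°C (0.0478), which enter only the shared spread, and the NFRI 3155 change without its replicate 2 at 39°C (−1.16, adjusted p = 0.00772).

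*GIS1* encodes a zinc finger protein with a Jumonji domain, active around the diauxic shift. In NFRI 3155 it read 0.719 and 1.30 at 39°C, against 1.80 and 1.87 at 30°C. NFRI 3236 gave 1.18 and 0.821, against 1.14 and 1.42. S288C gave 0.519, 0.872 and 0.927, against 0.648, 0.583 and 0.631. The temperatures separated in NFRI 3155 alone, where *GIS1* fell to 0.526 of its 30°C level (log2 −0.93, SE 0.32, adjusted p = 0.0344). The ratios were 0.777 in NFRI 3236 (adjusted p = 0.405) and 1.21 in S288C (adjusted p = 0.410). The NFRI 3155 call was lost without replicate 1 at 39°C (log2 −0.50, adjusted p = 0.281), replicate 1 at 30°C (−0.96, adjusted p = 0.106) or replicate 2 at 30°C (−0.90, adjusted p = 0.122), and with no 75th percentile shift (−0.71, adjusted p = 0.340).

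*YAP1* encodes the bZIP regulator that accumulates in the nucleus on oxidation. In NFRI 3236 it read 1.16 and 0.624 at 39°C, against 0.433 and 0.598 at 30°C. In NFRI 3155 the 39°C values were 0.749 and 1.21, and the 30°C values 0.397 and 0.546. In S288C they were 1.20, 1.10 and 1.16 at 39°C, and 0.481, 0.517 and 0.468 at 30°C. All 39°C arrays were the higher in their strain, by a narrow margin for replicate 2 of NFRI 3236. *YAP1* rose 2.05-fold in NFRI 3155 (log2 1.03, SE 0.31, adjusted p = 0.0161) and 2.35-fold in S288C (log2 1.23, SE 0.25, adjusted p = 0.00110). The 1.67-fold ratio in NFRI 3236 did not pass (adjusted p = 0.0751), but did with no 75th percentile shift (log2 1.58, adjusted p = 0.0126). Without replicate 2 at 39°C, the array with the high *WBP1* ratio, the NFRI 3236 log2 change was 1.19. The NFRI 3155 call was lost without replicate 1 at 30°C (log2 0.80, adjusted p = 0.137) or replicate 2 at 39°C (0.69, adjusted p = 0.136), with no 75th percentile shift (1.25, adjusted p = 0.0599) and with a shift to the median (0.76, adjusted p = 0.0683).

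*SKN7*, whose product is a response regulator of the Sln1 and Ypd1 phosphorelay and a partner of Yap1, ran between 0.308 and 1.15 over the 14 arrays. Its 39°C to 30°C ratio was 0.871 in NFRI 3236, 0.688 in NFRI 3155 and 0.768 in S288C, with adjusted p between 0.351 and 0.758. The intervals were wide, at 0.355 to 1.34 in NFRI 3155. There the 39°C arrays read 0.308 and 1.15, against 0.901 and 0.832 at 30°C, and without replicate 2 at 39°C the log2 change was −1.49 (adjusted p = 0.00219).

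*RPN4* encodes the short-lived activator of proteasome genes. In NFRI 3236 it read 1.03 and 1.53 at 39°C, against 2.50 and 2.61 at 30°C. NFRI 3155 gave 2.29 and 1.92, against 2.82 and 2.20. S288C gave 0.654, 1.24 and 1.37, against 1.61, 1.45 and 1.64. The temperatures did not overlap in NFRI 3236 and S288C, with 39°C the lower. The fall passed the test in NFRI 3236, at 0.490 of the 30°C level (log2 −1.03, SE 0.32, adjusted p = 0.0205), and the ratios were 0.841 in NFRI 3155 (adjusted p = 0.553) and 0.661 in S288C (adjusted p = 0.0686). The NFRI 3236 call was lost without replicate 1 at 39°C (log2 −0.74, adjusted p = 0.148), replicate 1 at 30°C (−1.06, adjusted p = 0.0721) or replicate 2 at 30°C (adjusted p = 0.0856), with a shift to the median (−0.92, adjusted p = 0.0552) and with no shift (−0.19, adjusted p = 0.802). In S288C the change passed without replicate 3 at 39°C (−0.80, adjusted p = 0.0300) and with a shift to the median (−0.84, adjusted p = 0.0238).

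*HAC1* mRNA is spliced by Ire1 when unfolded proteins build up in the endoplasmic reticulum, and the probe set does not tell spliced from unspliced RNA here. In NFRI 3236 *HAC1* read 9.12 and 6.65 at 39°C, against 4.84 and 6.56 at 30°C. NFRI 3155 gave 5.64 and 5.49, against 3.88 and 4.87. S288C gave 12.5, 12.1 and 10.1, against 12.2, 10.1 and 11.9. The ratios of 1.38, 1.28 and 1.02 in the same order did not pass (adjusted p = 0.136, 0.245 and 0.925), and in S288C the 95% interval of the ratio was 0.761 to 1.36. Under quantile normalization *HAC1* passed in NFRI 3236 (log2 0.89, adjusted p = 0.0122) and S288C (0.65, adjusted p = 0.0128). The NFRI 3236 change also passed with no 75th percentile shift (1.31, adjusted p = 0.0293).

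*RLM1* encodes the MADS box factor that Slt2 phosphorylates when the cell wall is stressed. In NFRI 3236 it read 1.05 and 0.929 at 39°C, against 0.338 and 0.604 at 30°C. In NFRI 3155 it read 0.575 and 1.12, against 0.378 and 0.322. In S288C it read 1.73, 1.55 and 1.49, against 0.338, 0.312 and 0.382. No strain had overlapping temperatures, and the S288C arrays at 39°C were above all other arrays. *RLM1* rose 2.18-fold in NFRI 3236 (log2 1.12, SE 0.31, adjusted p = 0.0125), 2.30-fold in NFRI 3155 (log2 1.20, SE 0.31, adjusted p = 0.00765) and 4.62-fold in S288C (log2 2.21, SE 0.26, adjusted p = 1.02e-05). The S288C change was higher than that of 96.5% of the genes tested. In NFRI 3236 the call was lost without replicate 1 at 39°C (log2 1.04, adjusted p = 0.0621) or replicate 1 at 30°C (0.71, adjusted p = 0.151). In NFRI 3155 it was lost without replicate 2 at 39°C (0.72, adjusted p = 0.0866) or replicate 2 at 30°C (1.08, adjusted p = 0.0573).

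*HOT1*, the partner of Hog1 at glycerol synthesis genes, ran between 0.0796 and 0.225. Its ratio was 0.633 in NFRI 3236 (adjusted p = 0.0896), 0.912 in NFRI 3155 (adjusted p = 0.739) and 0.749 in S288C (adjusted p = 0.156). It passed as lower in S288C with a shift to the median (log2 −0.66, adjusted p = 0.0247) and under quantile normalization (−0.70, adjusted p = 0.0162), and in NFRI 3236 after adding 16 to the signals (−0.67, adjusted p = 0.0226).

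**Figure D2:**
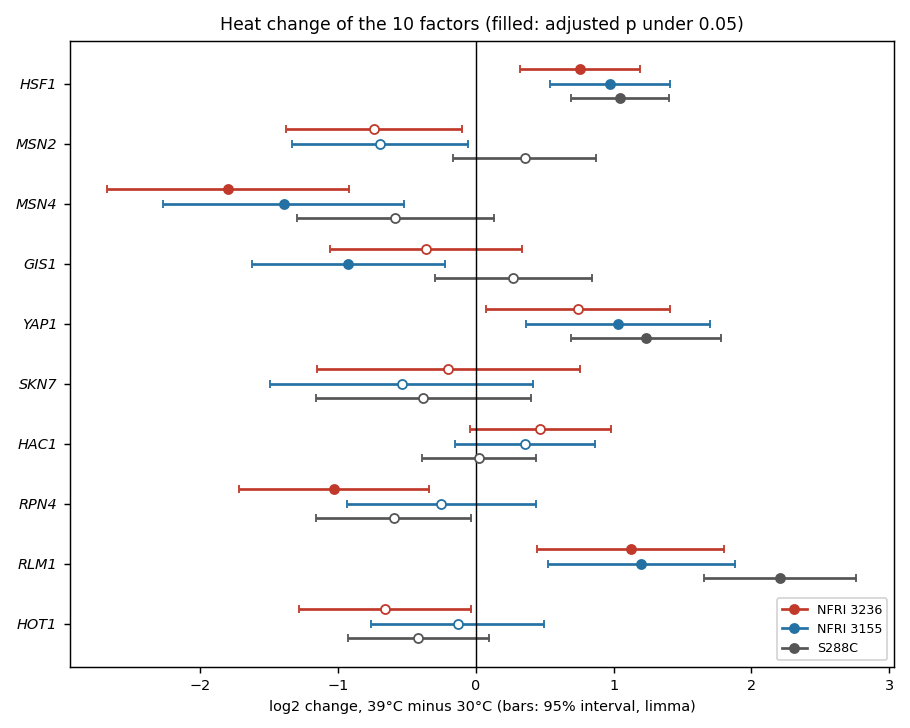
Log2 change at 39°C minus 30°C of each factor in each strain, with 95% intervals from limma and filled points where the adjusted p was under 0.05. *HSF1* and *RLM1* are filled to the right of 0 in all 3 strains, and *MSN4* is filled to the left in NFRI 3236 and NFRI 3155 (log2 −1.80 and −1.39).

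Whether a factor answered heat differently in 2 strains was tested as a difference of log2 changes. Of the 10 factors, 0 passed in limma between NFRI 3236 and S288C (10.1% of all genes did), 0 between S288C and NFRI 3155 (16.5%) and 0 between the NFRI strains (2.50%). At an unadjusted p under 0.05 there were 3, 3 and 0 factors in the same order, beside 27.4%, 32% and 16% of all genes. The largest of these differences ran between S288C and an NFRI strain. For NFRI 3236 minus S288C, *MSN4* differed by −1.21 (95% interval −2.34 to −0.08, adjusted p = 0.155), *MSN2* by −1.09 (−1.92 to −0.27, adjusted p = 0.0850) and *RLM1* by −1.08 (−1.96 to −0.21, adjusted p = 0.104). For S288C minus NFRI 3155, where a positive value means that the signed log2 change was higher in S288C, *GIS1* differed by 1.20 (0.30 to 2.10, adjusted p = 0.0662), *MSN2* by 1.05 (0.23 to 1.88, adjusted p = 0.0766) and *RLM1* by 1.01 (0.13 to 1.88, adjusted p = 0.106). These 2 comparisons share the S288C arrays. Replicate 2 of NFRI 3155 at 39°C decided the second: without it 4 factors passed, *GIS1* (1.62, adjusted p = 0.0256), *MSN4* (1.53, adjusted p = 0.0394), *MSN2* (1.51, adjusted p = 0.0171) and *RLM1* (1.49, adjusted p = 0.0243), and without replicate 1 of S288C at 39°C *GIS1* passed (1.46, adjusted p = 0.0211). *MSN2* also passed for NFRI 3236 minus S288C when either NFRI 3155 array at 39°C, which holds neither strain, was left out of the shared spread (−1.09, adjusted p = 0.0379 and 0.0378).

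The members of 2 pairs that share target genes were also set against each other. The *MSN4* to *MSN2* signal ratio within an array at 39°C was 0.480 of its 30°C value in NFRI 3236, 0.617 in NFRI 3155 and 0.521 in S288C, a mean log2 change of −0.90. Array by array the ratio was 0.326 and 0.476 at 39°C, against 0.610 and 1.10 at 30°C, in NFRI 3236. It was 0.677 and 0.979, against 1.31 and 1.33, in NFRI 3155, and 0.574, 0.803 and 0.715, against 1.43, 1.33 and 1.22, in S288C. The 39°C arrays of a strain were all below its 30°C arrays. For *YAP1* to *SKN7* the 39°C ratio was 1.92 times the 30°C ratio in NFRI 3236, 2.97 times in NFRI 3155 and 3.06 times in S288C, a mean log2 change of 1.37. These ratios need no shift between arrays, only their change carries meaning since probe sets differ in brightness, and, since the 2 pairs were chosen after their values were seen, they are a description with no test.

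**Figure D3:**
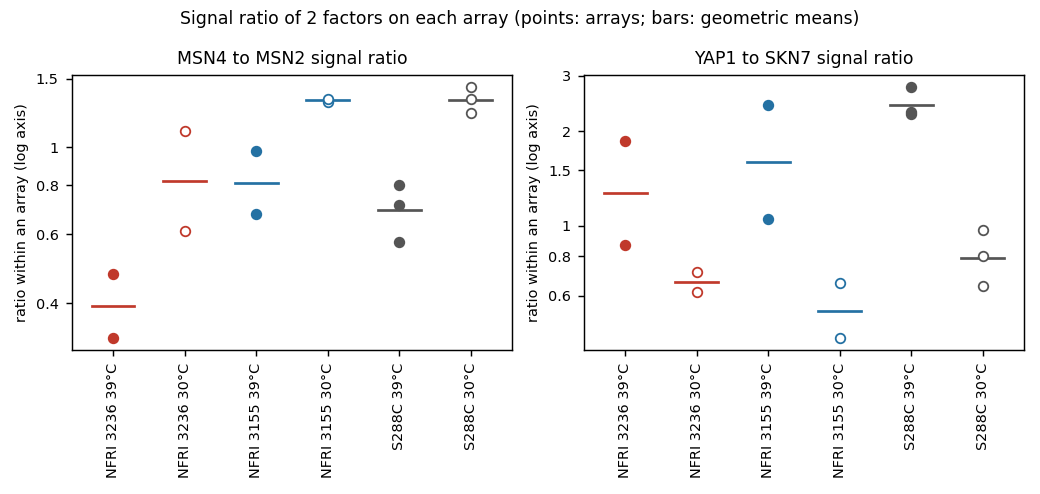
Signal ratio of *MSN4* to *MSN2* (left) and of *YAP1* to *SKN7* (right) on each array, on log axes, with points for arrays, filled at 39°C and open at 30°C, and bars for geometric means. In each strain the 39°C arrays lie below the 30°C arrays for *MSN4* to *MSN2* and above them for *YAP1* to *SKN7*, with mean log2 changes of −0.90 and 1.37.

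Before heat, at 30°C, *MSN2* and *GIS1* were higher and *HAC1* was lower in both NFRI strains than in S288C. *MSN2* read 1.15 and 1.41 in NFRI 3236 and 1.74 and 1.71 in NFRI 3155, against 0.504, 0.440 and 0.552 in S288C. This was 2.57-fold for NFRI 3236 over S288C (log2 1.36, SE 0.27, adjusted p = 0.00265) and 3.47-fold for NFRI 3155 (log2 1.79, SE 0.27, adjusted p = 3.27e-04). *GIS1* was 2.05-fold higher in NFRI 3236 (adjusted p = 0.0189) and 2.96-fold higher in NFRI 3155 (adjusted p = 0.00163). *HAC1* stood at 0.496 of the S288C level in NFRI 3236 (log2 −1.01, adjusted p = 0.00417) and at 0.383 in NFRI 3155 (log2 −1.38, adjusted p = 4.21e-04). The ranges of each NFRI strain and S288C were separate for all 3 genes.

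Each NFRI strain also differed from S288C in a factor of its own call. *MSN4* was 3.45-fold higher in NFRI 3155 (log2 1.79, SE 0.37, adjusted p = 0.00306), where both arrays read 2.27. In NFRI 3236 it read 0.704 and 1.56, against 0.720, 0.587 and 0.675 in S288C, a ratio of 1.59 with an interval of 0.914 to 2.77 (adjusted p = 0.194). *HSF1* was 1.53-fold higher in NFRI 3236 (log2 0.61, SE 0.18, adjusted p = 0.0249), and stood at 0.956 of the S288C level in NFRI 3155 (adjusted p = 0.809). Between the NFRI strains 0 factors passed in limma (8.91% of all genes did), and at an unadjusted p under 0.05 there were 2, beside 21% of all genes: *HSF1* with 1.60 times the NFRI 3155 level in NFRI 3236 (adjusted p = 0.0562) and *MSN4* with 0.461 times (adjusted p = 0.125). *RPN4* was above S288C on all 30°C arrays of both NFRI strains without passing (1.63-fold, adjusted p = 0.0840 in NFRI 3236, and 1.59-fold, adjusted p = 0.0945 in NFRI 3155), and passed in both when replicate 1 of S288C at 39°C was left out (adjusted p = 0.0189 and 0.0233), with 16 added (0.0355 and 0.0395) and with no 75th percentile shift (log2 1.61 and 1.78). *YAP1*, *SKN7*, *RLM1* and *HOT1* did not pass against S288C. With no shift *SKN7* passed as higher in NFRI 3236 (1.21) and NFRI 3155 (1.60), as did *RLM1* (1.30 and 1.13) and, in NFRI 3155, *HSF1* and *YAP1* (1.04 each), and with 16 added *HOT1* passed as lower in NFRI 3155 (−0.61, adjusted p = 0.0270). Between the NFRI strains *HSF1* passed without either NFRI 3155 array at 39°C (adjusted p = 0.0491 each) or replicate 1 of S288C at 39°C (0.0304), and *MSN4* without either NFRI 3155 array at 39°C (0.0334 and 0.0332) or replicate 2 of NFRI 3236 at 30°C (log2 −1.69, adjusted p = 0.0389).

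In all, 4 factors differed from S288C at 30°C in NFRI 3236 and 4 in NFRI 3155, beside 29.2% and 30.2% of all genes. In NFRI 3236 the 3 that were higher compare with 15.4% of all genes and the 1 that was lower with 13.8%, and in NFRI 3155 the same counts compare with 16.3% and 13.9%. All arrays lay above those of S288C for 4 factors in NFRI 3236 (34.1% of all genes) and 5 in NFRI 3155 (35.6%), and below for 2 (29.2%) and 2 (33.6%). The calls for *MSN2* in both strains, and for *MSN4* and *GIS1* in NFRI 3155, held in every alternative. In NFRI 3236 the *HSF1* call was lost without any of 4 arrays (replicates 1 and 2 of S288C or of NFRI 3236 at 30°C, log2 0.53 to 0.65, adjusted p up to 0.142) and with 16 added to each signal (0.39, adjusted p = 0.0978). The *GIS1* call was lost without replicate 2 of S288C or either NFRI 3236 array at 30°C (0.87 to 1.19, adjusted p up to 0.145), and the *HAC1* call without replicate 1 of NFRI 3236 at 30°C (−0.79, adjusted p = 0.0652). With no 75th percentile shift the *HAC1* difference was −0.11 in NFRI 3236 (adjusted p = 0.826) and −0.28 in NFRI 3155 (adjusted p = 0.552), on arrays where the median of all genes was itself 0.93 and 1.14 above S288C. A difference between strains in RNA and a difference in how well it binds the 1 probe set of a gene cannot be told apart.

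**Figure D4:**
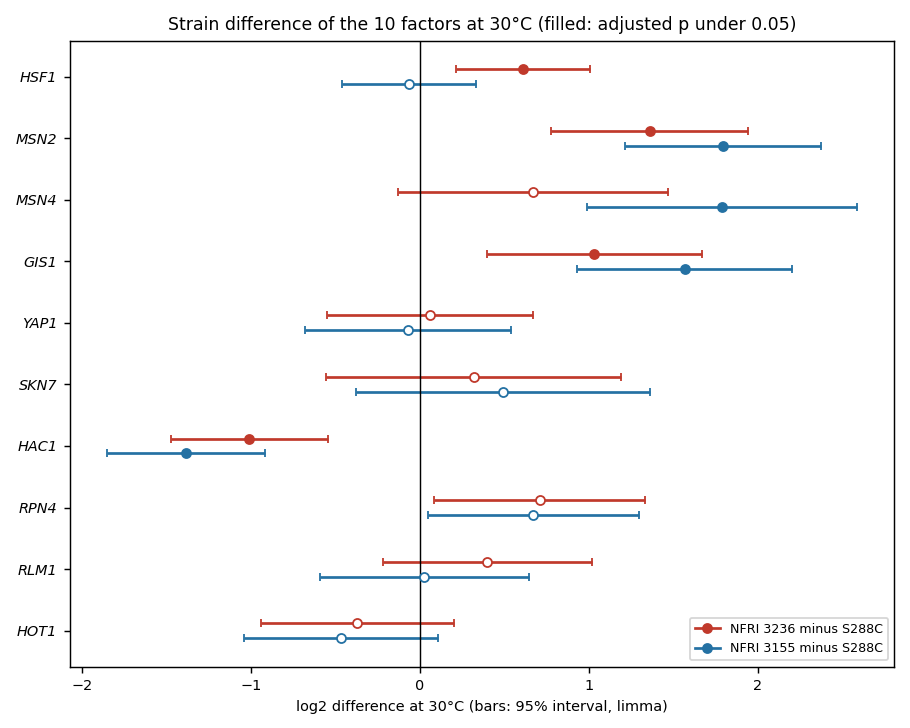
Log2 difference at 30°C of each factor between NFRI 3236 or NFRI 3155 and S288C, with 95% intervals from limma and filled points where the adjusted p was under 0.05. *MSN2* and *GIS1* are filled to the right of 0 and *HAC1* to the left for both strains, *MSN4* is filled only for NFRI 3155 (log2 1.79) and *HSF1* only for NFRI 3236 (log2 0.61).

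Over the 14 arrays some factors had similar profiles. Pearson's r was 0.92 for *YAP1* and *RLM1*, 0.83 for *HSF1* and *RLM1*, 0.86 for *MSN2* and *GIS1*, and 0.75 for *MSN2* and *MSN4*, whereas *MSN2* and *HAC1* ran opposite (r = −0.82). Among 4945 other genes above background on all arrays, those most like *HSF1* were *RAV2* (r = 0.97) and *LSB1* (0.94), those most like *RLM1* were the cochaperone gene *STI1* (0.96) and the phosphodiesterase gene *PDE1* (0.95), and those most like *YAP1* were *USA1* and the phosphatase gene *PTP2* (0.93 each). For *MSN4* they were *STU1* (0.95) and *YCS4* (0.94), for *GIS1* *ISF1* and *RIM101* (0.91 and 0.90), and for *RPN4* *SPC98* (0.95) and *FAT1* (0.93). These values are descriptions, since the arrays share 3 strains and 2 temperatures and are not independent points.

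The genes that the Msn2/4 and Gis1 factors are known to drive changed far more than the transcripts of the factors. In the NFRI strains the median change of the Hsf1 and Rlm1 targets lay close to that of the factor. In S288C the median log2 change was 2.44 for the Hsf1 targets, against 1.04 for *HSF1*. It was 1.45 there for the Rlm1 targets, against 2.21 for *RLM1*. The lists were drawn from general knowledge of each factor's targets, and their counts are set beside the 15.7% of all genes that rose and 23.5% that fell in NFRI 3236, 18.1% and 24.1% in NFRI 3155, and 25.2% and 28.2% in S288C. Of 21 Msn2/4 targets, 19 rose in NFRI 3236, 20 in NFRI 3155 and 21 in S288C, and 0 fell in any strain by limma, at an unadjusted p under 0.05 too. Their median log2 change was 2.86 in NFRI 3236, 2.89 in NFRI 3155 and 4.01 in S288C. *DDR2*, a gene of unknown biochemical role induced by DNA damage and heat, rose 69.7-fold in NFRI 3236, 295-fold in NFRI 3155 and 192-fold in S288C, and *SOL4* rose 28.4-fold, 44.5-fold and 145-fold, while *MSN4* itself was lower on every heated array. At 30°C, where *MSN2* was higher in both NFRI strains, 8 of the 21 were higher and 3 lower in NFRI 3236 than in S288C, with 9 and 4 in NFRI 3155, beside 15.4% higher and 13.8% lower of all genes in NFRI 3236, and 16.3% and 13.9% in NFRI 3155. With no 75th percentile shift these counts were 15 and 1, and 16 and 0, in a setting that called 2394 and 3159 of the 5443 genes higher. The cytosolic catalase gene *CTT1* was 2.31-fold higher in NFRI 3236 and 6.29-fold in NFRI 3155, and *PGM2*, for a phosphoglucomutase, 2.26-fold and 5.63-fold. The heat change was smaller in NFRI 3236 than in S288C for 9 of the 21 (5.82% of all genes) and larger for 1 (4.30%). These shares are for the main setting and do not apply to the counts with no shift, which were 2 and 0. The heat change was larger in S288C than in NFRI 3155 for 6 (8.87%) and smaller for 3 (7.64%). Between the NFRI strains it was smaller in NFRI 3236 for 5 and larger for 0, beside 2.50% of all genes in either direction. After heat *CTT1* stood at 0.981 of its 30°C level in NFRI 3236 (adjusted p = 0.958), 3.11-fold in NFRI 3155 (adjusted p = 0.00151) and 17.1-fold in S288C (adjusted p = 7.12e-08). Its change differed between NFRI 3236 and S288C by −4.13 on the log2 scale (adjusted p = 9.74e-05). Of 5 Gis1 targets, 4 rose in NFRI 3236, 5 in NFRI 3155 and 5 in S288C, led by the small heat shock protein genes *HSP26* (157-fold, 548-fold and 457-fold) and *HSP12* (24.7-fold, 106-fold and 66.6-fold), the second of which is also on the Msn2/4 list.

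Of 22 Hsf1 chaperone targets, 12 rose and 1 fell in NFRI 3236, 9 rose in NFRI 3155 and 18 rose in S288C. The median log2 change was 0.82 in NFRI 3236, 0.79 in NFRI 3155 and 2.44 in S288C. *HSP82*, an Hsp90 gene, was 17.1 times its 30°C level in heated NFRI 3155 cells and 30.2 times in heated S288C cells, and it rose in NFRI 3236 as well (adjusted p = 7.66e-07). The J protein gene *APJ1* fell to 0.542 of its 30°C level in NFRI 3236 (adjusted p = 0.0179). The heat change was smaller in NFRI 3236 than in S288C for 13 of the 22 (5.82% of all genes) and larger for 0 (4.30%), and larger in S288C than in NFRI 3155 for 9 (8.87%) and smaller for 0 (7.64%), whereas the *HSF1* difference itself did not pass. At 30°C 10 of the 22 were higher in NFRI 3236 than in S288C and 1 was lower (15.4% and 13.8% of all genes), with 5 and 2 in NFRI 3155 (16.3% and 13.9%). The lower genes in NFRI 3155 include *SSA2*, at 0.00158 of the S288C level (log2 −9.31, SE 1.03). Whether so low a signal reflects RNA or probe binding was not tested. Under quantile normalization 20 rose in NFRI 3236 and 17 in NFRI 3155. The smaller heat change in NFRI 3236 passed for 3 genes rather than 13 with no 75th percentile shift. The shares of all genes above are for the main setting and do not apply to these counts.

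Proteasome, endoplasmic reticulum and cell wall genes rose beside factors that rose, fell or did not pass. Of 32 Rpn4 proteasome targets, 21 rose in NFRI 3236, 23 in NFRI 3155 and 28 in S288C, by medians of 0.84, 0.74 and 1.12, with *PRE1* at 2.24-fold, 2.29-fold and 2.73-fold. *RPN4* was at 0.490, 0.841 and 0.661 of its 30°C level in the same strains. With no 75th percentile shift 5 of the 32 rose in NFRI 3155. Of 11 Hac1 targets, 7 rose in NFRI 3236, 8 in NFRI 3155 and 11 in S288C, among them *ERO1*, the oxidase of disulfide formation, at 4.41-fold, 5.80-fold and 8.78-fold. At 30°C *HAC1* was lower in both NFRI strains than in S288C. There 0 of the 11 were lower in either NFRI strain in limma, at an unadjusted p under 0.05 too, and 2 were higher in NFRI 3236. Of all genes, 13.8% were lower in NFRI 3236 and 13.9% in NFRI 3155, and 15.4% were higher in NFRI 3236. For a list of 11 these counts lie near those shares.

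Of 10 Rlm1 cell wall targets tested, 6 rose in NFRI 3236, 5 rose and 1 fell in NFRI 3155, and 6 rose and 1 fell in S288C. *PRM5* rose in all 3 strains, 26.8-fold in S288C. In each NFRI strain 1 of 2 arrays at 30°C was above background for it, and its measured ratios of 48.2 in NFRI 3236 and 15.1 in NFRI 3155 rest on those dim values. The cell wall protein gene *PIR3* rose 17.9-fold in NFRI 3236, 16.2-fold in NFRI 3155 and 31.7-fold in S288C. *FKS1*, which encodes glucan synthase, fell to 0.579 of its 30°C level in NFRI 3155 and 0.619 in S288C. Of 14 Yap1 and Skn7 targets, 3 rose and 4 fell in NFRI 3236, 4 rose and 1 fell in NFRI 3155, and 5 rose and 4 fell in S288C, with medians of −0.20, 0.44 and 0.01. The peroxiredoxin gene *AHP1* rose 2.91-fold, 5.16-fold and 5.18-fold, and the transporter gene *ATR1* fell to 0.529, 0.278 and 0.510. With no shift the split in NFRI 3236 was 4 higher and 0 lower, and in S288C 5 and 1. Of 5 Hot1 targets, 2 rose and 2 fell in NFRI 3236, 3 and 1 in NFRI 3155, and 3 and 0 in S288C. With no shift these were 2 and 0, 2 and 0, and 4 and 0. *RTC3* rose 6.13-fold, 14.4-fold and 97.6-fold, and *GPD1*, the glycerol synthesis enzyme, fell to 0.486 in NFRI 3236 and rose 2.14-fold in S288C.

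**Figure D5:**
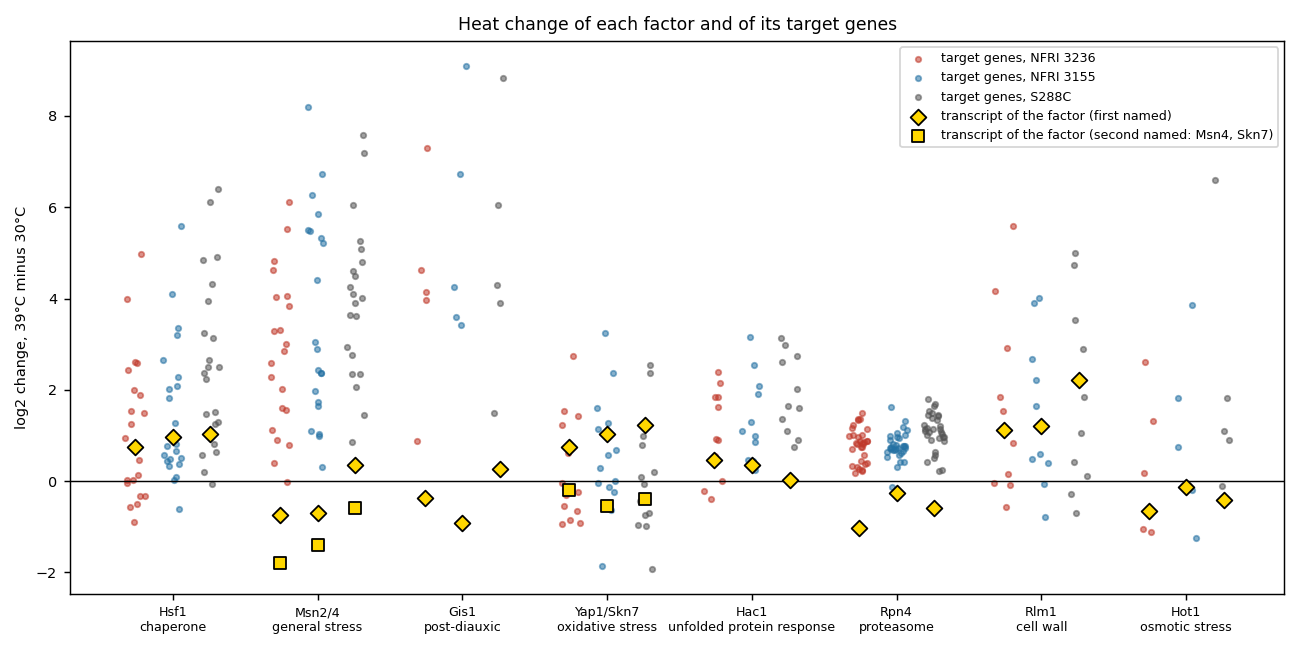
Log2 change at 39°C minus 30°C of the target genes of each factor (small points, coloured by strain) and of the transcript of the factor itself (yellow diamonds, or squares for Msn4 and Skn7). The Msn2/4 and Gis1 targets lie mostly far above 0, with medians of 2.86 to 4.29, while the transcripts of Msn4 lie below 0 in all 3 strains.

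Proteins that act on the factors were measured in the same way. Of 16 tested, *SLT2*, the kinase of Rlm1, *BCY1*, the inhibitory subunit of protein kinase A, and *HYR1*, the peroxidase that oxidises Yap1, rose in all 3 strains. Of all genes, 9.06% did so. *SLT2*, which is also an Rlm1 target, read 7.77 and 5.81 at 39°C in NFRI 3236, against 2.28 and 2.34 at 30°C. It read 5.66 and 5.78, against 1.68 and 1.99, in NFRI 3155, and 10.1, 9.64 and 8.81, against 1.24, 1.25 and 1.37, in S288C. Its rise of 2.91-fold in NFRI 3236, 3.13-fold in NFRI 3155 and 7.40-fold in S288C was the larger in S288C by the test of the difference (log2 −1.35 for NFRI 3236 minus S288C, adjusted p = 0.00786, and 1.24 for S288C minus NFRI 3155, adjusted p = 0.00780). *RLM1* had the same order of strains with S288C highest, and its differences did not pass.

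The genes for Ubr2 and Mub1, which mark Rpn4 for degradation, were measured too. *UBR2* rose 3.31-fold in S288C (adjusted p = 1.83e-04), from dim 30°C values of 1.93 to 3.89 times background. *MUB1* rose 2.06-fold in NFRI 3236 (adjusted p = 0.0110), and stood at 0.684 of its 30°C level in NFRI 3155 (adjusted p = 0.137). At 30°C *MUB1* was lower than in S288C in both, at 0.497 in NFRI 3236 (adjusted p = 0.0114) and 0.401 in NFRI 3155 (adjusted p = 0.00212). *RIM15*, the kinase above Gis1, read 0.0749 and 0.0660 in NFRI 3155 at 30°C, against 0.378, 0.289 and 0.156 in S288C. That was 0.274 of the S288C level (adjusted p = 0.00127). The NFRI 3155 values are dim, at 1.86 and 1.89 times background. The 16 gave 4 rises and 0 falls in NFRI 3236, 3 and 0 in NFRI 3155, and 7 and 2 in S288C. Of all genes, 15.7% rose and 23.5% fell in NFRI 3236, 18.1% and 24.1% in NFRI 3155, and 25.2% and 28.2% in S288C.

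Relatives of the factors gave both directions, as all genes did. Of 17 related transcription factors, 3 rose and 4 fell in NFRI 3236, 4 rose and 3 fell in NFRI 3155, and 6 rose and 5 fell in S288C. With no shift these splits were 8 and 1, 3 and 2, and 8 and 2. In the main setting 15.7% of all genes rose and 23.5% fell in NFRI 3236. The shares were 18.1% and 24.1% in NFRI 3155, and 25.2% and 28.2% in S288C. The main counts in the NFRI strains were near these shares. *CIN5*, a bZIP relative of Yap1, fell to 0.147 of its 30°C level in NFRI 3236, 0.0858 in NFRI 3155 and 0.254 in S288C. *HMS2*, whose product resembles heat shock factors, fell to 0.294, 0.242 and 0.0713. *USV1*, a zinc finger relative of the stress factors, rose 3.25-fold, 6.23-fold and 2.59-fold. At 30°C it was dim, at 1.60 and 1.81 times background in NFRI 3236 and 1.77 to 1.85 times in S288C. *RPH1*, the paralog of *GIS1*, rose 2.38-fold in NFRI 3236 (adjusted p = 0.00280) and 2.39-fold in NFRI 3155 (adjusted p = 0.00229), and was lower at 30°C in both strains than in S288C (0.583 and 0.545). *GIS1* fell in NFRI 3155 after heat and was higher in both strains at 30°C. *SMP1*, the relative of *RLM1*, was 2.23-fold higher than in S288C at 30°C in NFRI 3236 and 4.67-fold higher in NFRI 3155, where *RLM1* did not differ beyond its error.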

How the data were processed

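The authors scanned Affymetrix Yeast Genome 2.0 arrays and deposited 1 linear signal intensity per probe set, made with GCOS at default settings. Whether GCOS scaled the arrays to a common target is not given in the sources used here. The number of arrays limits the precision (median posterior SD 0.27 on the log2 scale).

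Signals below 1 were set to 1, taken to log2 and shifted by each array's 75th percentile, as in the methods. Genes above the 20th percentile of the array in every array of at least 1 group were tested, with the brightest probe set of a gene. limma 3.58.1 in R 4.3.3 fitted 6 group means to all 14 arrays (two-sided tests, eBayes), and was tested on simulated data. Detection flags were not used here. The 10 factors are named in every comparison, with the 2 genes most correlated with each factor called and up to 2 rises and 2 falls from each list. Other genes named (*CTT1*, *PGM2*, *SSA2*, *SLT2*, *MUB1*, *RIM15*, *RPH1*, *SMP1*, *BCY1* and *HYR1*) were chosen after their values were seen. *NCW2*, on the list of Rlm1 targets, was not analysed here. Of 13 mating type markers, 0 were higher and 3 lower at 30°C in NFRI 3236 than in S288C, and 0 and 5 in NFRI 3155. The shares of all genes were 15.4% higher and 13.8% lower in NFRI 3236, and 16.3% and 13.9% in NFRI 3155. Some of these markers were above background on no array of an NFRI strain. Sequences were not used here. The factors and lists were chosen with earlier results of these data known. Alternatives were other scalings, filters, 16 added to each signal, a replicate block, the methods' t-test and leaving out each array.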

Additional observations from a re-analysis of the deposited data

How the results depend on the processing

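Of the tests of single factors, 1988 kept their side of the threshold under the alternatives, 54 lost the call and 56 gained it. Calls that stayed kept their direction, but a change of sign between results without a call was counted as kept. The other 2 turned: with no 75th percentile shift *HSF1* and *YAP1* were higher at 30°C in NFRI 3155 than in S288C (log2 1.04 each, adjusted p = 0.0391 and 0.0389). That setting raised the median heat change of all genes to 0.74 in NFRI 3236, 0.13 in NFRI 3155 and 0.56 in S288C, and called 1486 genes higher and 121 lower in NFRI 3236 (main setting 854 and 1277), 591 and 503 in NFRI 3155 (987 and 1312), and 1839 and 449 in S288C (1370 and 1535). Against S288C at 30°C it called 2394 higher and 106 lower in NFRI 3236 (837 and 750) and 3159 and 118 in NFRI 3155 (886 and 759). With a shift to the median the heat split was 616 and 1744 in NFRI 3155 and 955 and 1970 in S288C. With no 75th percentile shift the number of factors called was 1 for the heat change in NFRI 3155, and 7 for NFRI 3236 and 8 for NFRI 3155 against S288C at 30°C. It was 5 for the heat change in S288C under quantile normalization and with a shift to the median. For S288C minus NFRI 3155 in heat change it was 1 with 16 added and 1 with only genes above background on all arrays, and for NFRI 3236 minus NFRI 3155 at 30°C 1 under quantile normalization and 1 by the methods' t-test. That test called 1 factor for heat in NFRI 3236 and 1 in NFRI 3155, and 0 of each after Benjamini-Hochberg adjustment, as it did for all genes there. Most heat calls in the NFRI strains thus failed it, and the lost calls listed for each factor leave it out. Leaving out each array in turn gave 1 to 5 factors for heat in NFRI 3236, 2 to 5 in NFRI 3155 and 3 to 4 in S288C. For the differences in heat change it gave 0 to 1 (NFRI 3236 minus S288C), 0 to 4 (S288C minus NFRI 3155) and 0 to 0 (NFRI 3236 minus NFRI 3155), and at 30°C 1 to 5, 4 to 5 and 0 to 2 for NFRI 3236 against S288C, NFRI 3155 against S288C and NFRI 3236 against NFRI 3155. An array left alone in its group is taken to vary like the other groups. The mean log2 change of the *MSN4* to *MSN2* ratio stayed between −1.04 and −0.76, and that of *YAP1* to *SKN7* between 1.17 and 1.58. Whether same-numbered arrays of a strain shared a culture is not given in the methods. Their deviations correlated at −0.08 to 0.05, which cannot decide it, since the deviations of 2 arrays in a group mirror each other. With the replicate number as a block the counts of factors called were 4, 5 and 3 for heat in NFRI 3236, NFRI 3155 and S288C. They were 0 for each difference in heat change, and 4, 4 and 0 at 30°C. The causes of these changes were not tested. The pair ratios, and list counts for strain differences under other scalings, were added after the data were seen.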
